A study of Mus musculus with 21 samples.

Results

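The cells described here are fibroblasts of the inflamed mouse colon that carried transcripts of both Cxcl13 and Cd34. They were picked from 1 droplet library by counting unique molecular identifiers (UMIs, each a tag for 1 captured RNA molecule). A barcode, the tag shared by the reads of 1 droplet, was kept when it held at least 500 genes and at most 10% of UMIs from mitochondrial genes. A kept barcode was a member when it held at least 3 Cxcl13 UMIs, at least 1 Cd34 UMI, no Ebf1 UMI and fewer than 3 of Hapln1, Spock3, Opcml, Stmn2 and Sfrp2. This picked 1064 of 11376 kept barcodes, a share of 9.35% (95% exact Clopper-Pearson interval 8.82% to 9.9%), and left 10312 others for comparison. Because the rule reads these same counts, every level below is a description and none was tested.

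The library was made from colon cells of wild-type C57BL/6 mice, female and 12 weeks old, given 2% dextran sulfate sodium (DSS), which injures the colon epithelium, and labelled D3. The cells are labelled gp38+CD90+ total iMSC, gp38 being the product of Pdpn and CD90 that of Thy1. The series also holds open chromatin (ATAC-seq) from 4 sorted stromal populations, MRISC, CD34 SP, CD138 (labelled CD34-CD138+) and Myofibroblast, each with 2 libraries from male C57BL/6 mice of 12 weeks whose labels name no treatment. The labels do not say which antibodies define MRISC. With 1 library and no untreated or mutant single-cell sample, nothing below compares treatments, genotypes or animals, and intervals cover counting error only.

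CXCL13 is a chemokine that draws B cells and other cells bearing the receptor CXCR5 into follicles. In lymphoid tissue it is made by follicular dendritic cells and other stromal organiser cells, which are known to respond to lymphotoxin and TNF through NF-kappaB and to make CCL19, CCL21 and adhesion molecules as well. CD34 marks fibroblasts near vessels and below crypts in the gut. MGP is a matrix protein that inhibits calcification, and ELN is elastin, the core of elastic fibres.

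Cxcl13 was set by the rule, and members held a pooled level of 1990 CPM (UMIs of a gene per 1000000 UMIs of the group; Poisson interval 1956 to 2023). All other kept barcodes held 88.1 CPM (85.8 to 90.3). Among members the count per barcode ran from 3 to 113 UMIs with a median of 8, and the 75th percentile was 16. The tenth of members with most Cxcl13 held 34.5% of its UMIs. The rule's edge cut through a continuous range: among Cd34 barcodes that met the other clauses, 757 held 1 Cxcl13 UMI and 287 held 2 (outside), and 155 held 3 and 121 held 4 (inside). Over all kept barcodes, 3142 (27.6%) held a Cxcl13 UMI at a median depth of 6052 UMIs. In the cluster led by smooth muscle genes, 11.5% did at a median of 5806 UMIs, and 2.42% held 3 or more. Empty droplets held 249.1 CPM of Cxcl13. A member of median depth would hold 0.13 free Cxcl13 UMIs at the share of free RNA that epithelial genes give (9.05%). It would hold 0.324 at that of leukocyte and epithelial genes (22.6%) and 1.33 at that of macrophage and dendritic cell genes (92.6%), against a mean of 12.8 measured.

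Of the other genes of the label, Mgp was higher in members and Eln was not. Mgp stood at 5657 CPM (5601 to 5714) in members and at 2337 CPM (2325 to 2349) in the other barcodes, a ratio of 2.42. Cd34, also set by the rule, stood at 516 against 422 CPM. Eln stood at 837 CPM (816 to 859) in members and 816 CPM (809 to 823) in the others, a ratio of 1.03. The Eln level therefore goes against the label: it did not set these cells apart. A nearer reference is the 4208 kept barcodes with Cd34, no Cxcl13 UMI and the same other clauses, which are part of the first reference. Against these, Mgp was again higher (2659 CPM, ratio 2.13), whereas Eln was lower in members (1019 CPM in the reference, ratio 0.822) and Cd34 was near level (530 CPM, ratio 0.974).

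**Figure D1:**
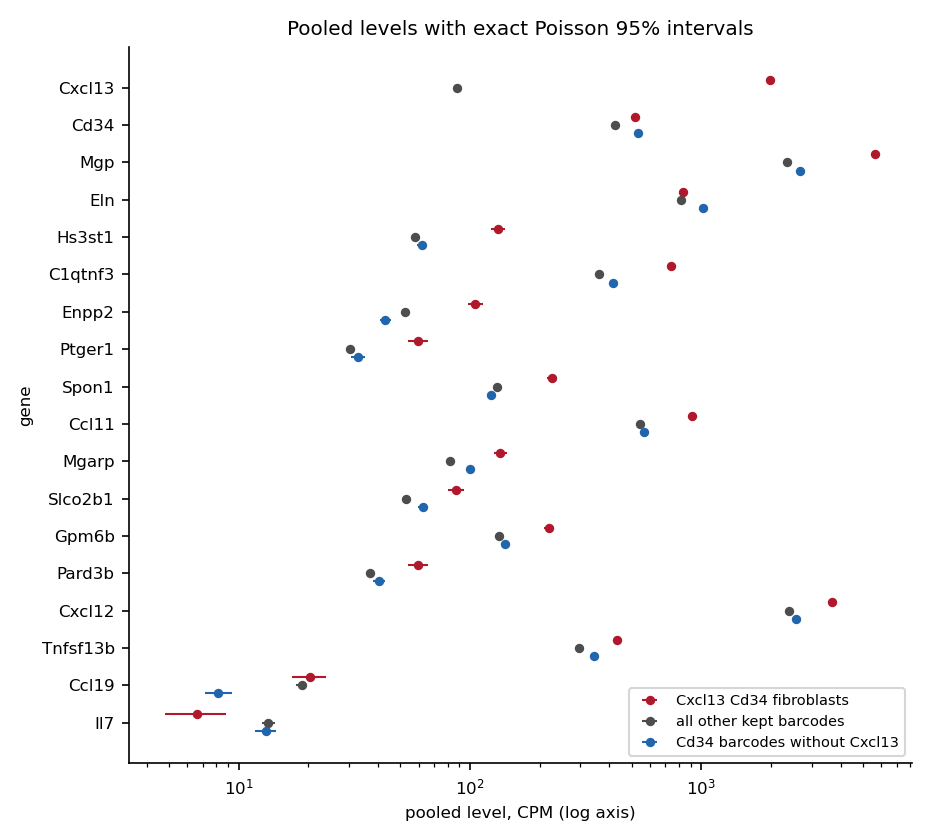
Pooled level (CPM, log axis) of 18 genes in the fibroblasts of the rule (red), all other kept barcodes (grey) and Cd34 barcodes without Cxcl13 (blue); points are pooled levels and bars exact Poisson 95% intervals, and the level of 0 for Cxcl13 in the last group is not drawn. Mgp, Hs3st1, C1qtnf3, Enpp2 and Ptger1 stand to the right in the fibroblasts, Eln does not, and Il7 stands to the left.

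Collagen and proteoglycan genes were high in members, as in the rest of the library. All 1064 held at least 2 of the 7 fibroblast markers Col1a1, Col1a2, Col3a1, Dcn, Lum, Pdgfra and Pdpn, and so did 99.96% of the others. Their summed level was 19188 CPM in members, 18395 CPM in the others and 18243 CPM in empty droplets, so this list does not separate them. The sort markers were at like levels, with Pdpn at 317 CPM against 282 CPM and Thy1 at 156 CPM against 149 CPM. Defining genes of other types were low: the 8 epithelial markers summed to 18 CPM (102 CPM in the others), the 6 T and NK cell markers to 0.585 CPM, the 4 mast cell markers to 0 CPM, and Ptprc, the pan-leukocyte antigen CD45, was at 0 in members. All 6 pan-leukocyte markers summed to 10.4 CPM in members and 16.4 CPM in the others. The 6 B and plasma cell markers summed to 62.1 CPM in members and 106 CPM in the others. That sum was 40.4 CPM in the Cd34 barcodes without Cxcl13 and 182 CPM in empty droplets. The 6 pericyte markers summed to 113 against 122 CPM, and the 6 blood endothelial markers to 36.1 against 36 CPM. Of these 36.1 CPM, Plvap, a protein of endothelial fenestrae, made up 32.7 CPM (28.6 to 37.3) in members against 20.3 CPM (19.2 to 21.4) in the others, while Cdh5 and Flt1 were at 0 in members. The part of this difference in other results was not tested. The 7 macrophage and dendritic cell markers summed to 49.7 CPM in members, 36.1 CPM in the others and 53.7 CPM in empty droplets, with Itgax at 0 in members, and their part in any result was not tested. At least 2 markers of 1 of 11 leukocyte, epithelial, endothelial, glial or mesothelial lists were found in 5.64% of members and 5.65% of the others. The lists differed within this total. Macrophage and dendritic cell markers gave 4.42% of members (2.93% of the others) and B and plasma cell markers 0.376% (0.204%). Epithelial markers gave 0.376% (1.37%) and mesothelial markers 0.282% (1.03%), and the rest were lower in members or at 0 in both groups. Outside those 11 lists, at least 2 of 6 smooth muscle and myofibroblast markers were found in 37.9% of members (51.5% of the others) and at least 2 of 6 pericyte markers in 8.74% (8.41%). No doublets were removed. Members held a median of 5761 UMIs and the others 6091.

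Few genes separated members from the rest by a wide margin. Of 5999 genes with at least 20 CPM in the higher group, 10 (0.167%) were at least 2-fold higher in members and 95 (1.58%) at least 2-fold lower, and the median ratio of all 5999 was 0.982. Against the Cd34 barcodes without Cxcl13, 13 of 5988 genes (0.217%) were at least 2-fold higher and 46 (0.768%) at least 2-fold lower. At 1.5-fold, 54 genes (0.9%) were higher and 205 (3.42%) lower than in all others, and 42 (0.701%) were higher and 121 (2.02%) lower than in the Cd34 reference. Since the same cells chose the members, these counts describe the groups and support no finding beyond them.

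Besides Cxcl13 and Mgp, 3 named genes were at least 2-fold higher than in all other barcodes. Hs3st1, which adds 3-O-sulfate to heparan sulfate, stood at 132 CPM in members (124 to 141), 57.9 CPM in the other barcodes and 61.8 CPM in the Cd34 reference. C1qtnf3, a secreted C1q/TNF-related protein, stood at 737 CPM (717 to 758) against 361 CPM and 414 CPM. Enpp2 encodes autotaxin, the enzyme that makes lysophosphatidic acid outside cells, and stood at 105 CPM (97.8 to 113) against 52.4 CPM and 43.1 CPM. The intervals of members lay above those of both references for all 3 genes. Ptger1, a receptor for prostaglandin E2, stood at 59.6 CPM against 30.4 CPM, and Spon1, a matrix-bound spondin, at 227 CPM against 131 CPM. Smaller ratios were found for Mgarp (1.65), the transporter Slco2b1 (1.65), the membrane protein Gpm6b (1.64), Pard3b (1.61), Adam23 (1.59), the phosphodiesterase Pde10a (1.58), the sodium channel Scn7a (1.56), the transcription factor Msc (1.55), Itm2a (1.55), the neuropilin Nrp2 (1.53) and the serpin Serpina3n (1.53). Of the 10 genes past 2-fold, Kcnn3, Wnt2, Adcyap1r1, Ttyh1 and Ly6h were at 20 to 50 CPM and Wnt2 stood at 38.4 CPM against 19 CPM.

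Chemokine genes differed within each list. Of 10 homeostatic lymphoid chemokine genes, 5 reached 20 CPM: Cxcl13 was past 2-fold higher by rule, none was past 2-fold lower, 1 was 1.5-fold lower (Cxcl14), and the list's median ratio was 1.09. Cxcl12, which retains CXCR4-bearing cells in tissue, stood at 3674 CPM (3628 to 3719) in members, 2396 CPM in the others and 2572 CPM in the Cd34 reference. Ccl19, the T zone chemokine, stood at 20.3 CPM (17.1 to 24) in members, 18.7 CPM (17.7 to 19.8) in the others and 8.17 CPM (7.13 to 9.32) in the Cd34 reference. It was thus higher than in Cd34 barcodes without Cxcl13 and level with the whole remainder, in which the 1248 Cd34 barcodes with Ebf1 held 78.4 CPM. Ccl21a gave 2 UMIs in all members (0.292 CPM), and Cxcl14 was lower in members (126 against 244 CPM). Cx3cl1 was under the 20 CPM floor, at 12.4 CPM (9.92 to 15.4) against 5.06 CPM (4.53 to 5.63).

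Of 12 inflammatory chemokine genes, 9 reached 20 CPM against all other barcodes, 4 were at least 2-fold lower in members and none 2-fold higher, with a median ratio of 0.66. The 4 were Cxcl1 and Cxcl2, which draw neutrophils, at 169 against 365 CPM and 15.1 against 39.9 CPM, the interferon-induced Cxcl10 at 101 against 214 CPM, and the monocyte chemokine Ccl7 at 86.1 against 191 CPM. Against the Cd34 reference the same list had 1 of 10 genes 2-fold lower and a median of 0.85. In that reference Cxcl1 stood at 195 CPM, Cxcl2 at 23.6 CPM, Cxcl10 at 157 CPM and Ccl7 at 109 CPM. For Cxcl2, 1 member held 36 of 103 UMIs, and without the top barcode of each group the levels were 9.8 CPM in members, 38.5 CPM in the others and 21.1 CPM in the Cd34 reference. The exceptions were Ccl11 (eotaxin), at 914 CPM (892 to 937) against 544 CPM, Ccl8, at 200.2 against 149 CPM, and Cxcl5, at 144 against 105 CPM.

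**Figure D2:**
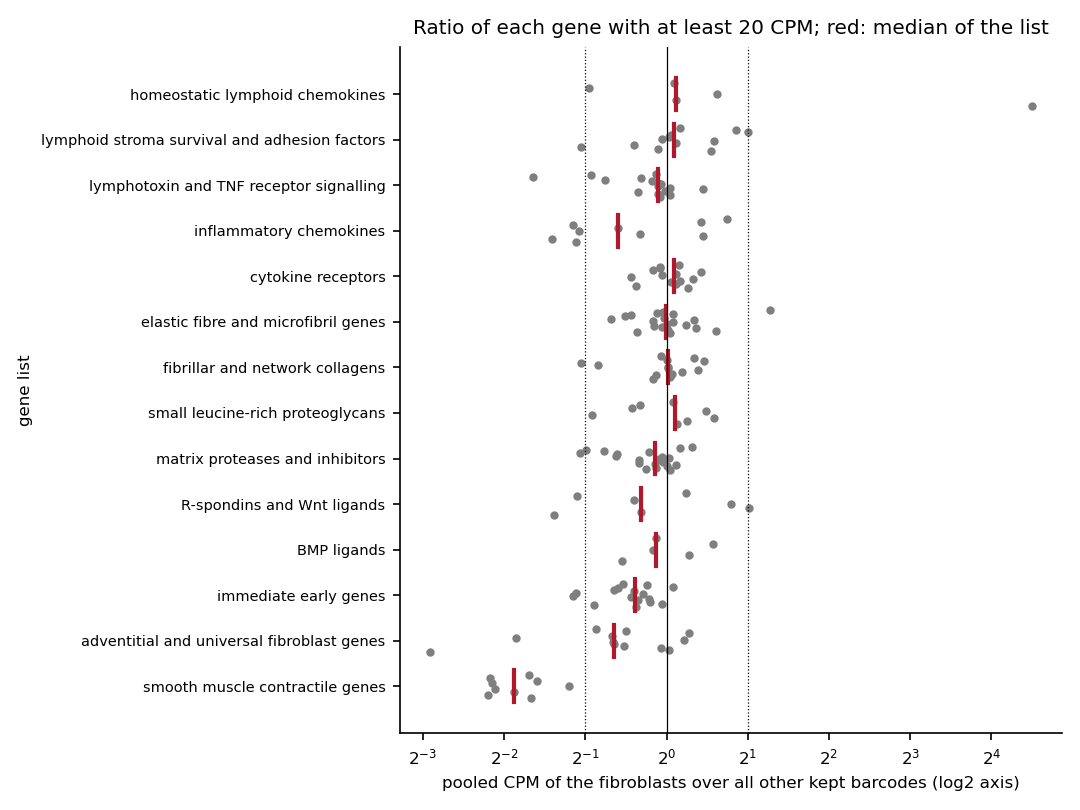
Each point is 1 gene with at least 20 CPM in the higher group, in 14 gene lists. It is placed by its pooled CPM in the fibroblasts of the rule over that in all other kept barcodes (log2 axis). Red bars are list medians, and dotted lines mark 2-fold. Ebf1 is not drawn because the rule bars it, though it counts in the median of its list. Cxcl13 stands alone at a ratio of 22.6, and most lists centre near 1. The lowest medians are those of smooth muscle contractile genes (0.271), adventitial genes (0.639), inflammatory chemokines (0.66) and immediate early genes (0.762).

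Other genes known from lymphoid organiser cells differed one by one. Of 16 lymphoid stroma survival and adhesion factors, 12 reached 20 CPM, 1 was 2-fold higher (Enpp2), 1 was 2-fold lower, 3 were at least 1.5-fold higher, and the median ratio was 1.06. Tnfsf13b encodes BAFF, the B cell survival factor, and stood at 434 CPM (418 to 450) against 296 CPM in the others and 343 CPM in the Cd34 reference. Kitl, the ligand of KIT, stood at 58.9 against 39.1 CPM. The adhesion genes were level, with Vcam1 at 308 against 303 CPM and Icam1 at 201 against 193 CPM. Il33, an alarmin cytokine, was the gene past 2-fold lower (18.9 against 39.2 CPM), though it was not lower than in the Cd34 reference (16.5 CPM). Il7, the lymphocyte growth factor, stood at 6.58 CPM (4.8 to 8.8) against 13.4 CPM (12.6 to 14.4). Tnfsf11 (RANKL), Madcam1 and Bst1 stood at 1.61, 0.438 and 0.877 CPM, and the 3 measured follicular dendritic cell markers Cr2, Fcer2a and Coch summed to 0.292 CPM.

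Receptors and NF-kappaB genes of the lymphotoxin and TNF route were mostly near level or lower. Of 19 genes, 16 reached 20 CPM, none was 2-fold higher, 1 was 2-fold lower and the median ratio was 0.927. Ratios above 1 were found for 3 of the 16, the highest being 1.365. Ltbr, the lymphotoxin beta receptor, stood at 59 CPM (53.4 to 65.1) against 62.6 CPM (60.7 to 64.5). Relb and Nfkb2, the subunits of the noncanonical route, stood at 45.2 against 51.3 CPM and 22.4 against 23.5 CPM. The feedback genes were lower in members than in all other barcodes: Nfkbia stood at 442 against 745 CPM, and Nfkbiz, at 27.6 against 86.6 CPM, was the gene past 2-fold. Against the Cd34 reference none of 16 genes was past 2-fold, 5 had ratios above 1 (the highest 1.431), and the median was 0.955. Within clusters 2, 0 and 1, described below, Nfkbiz ratios of members over the other cells were 1, 0.802 and 0.535.

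Matrix genes were level as a group, with single exceptions. Of 22 elastic fibre and microfibril genes, 20 reached 20 CPM, 1 was 2-fold higher (Mgp), none 2-fold lower, and the median ratio was 0.992. Fbln1, fibulin-1, stood at 2478 against 1630 CPM and Fbln5, fibulin-5, at 379 against 296 CPM, whereas Mfap5 stood at 258 against 414 CPM. Of 15 collagen genes, 14 were measured past 20 CPM, none was 2-fold higher, 1 was 2-fold lower (Col8a1), and Col1a1 stood at 1687 against 1896 CPM. Lum, a collagen-binding proteoglycan, stood at 1541 against 1032 CPM, and Igfbp3, a binding protein of insulin-like growth factors, at 1871 against 1200 CPM.

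Niche signals for the epithelium were mixed. Grem1, a BMP antagonist of the crypt base, stood at 252 CPM (240.5 to 264) in members, 178 CPM in the others and 145 CPM in the Cd34 reference. Wnt2b stood at 24.7 against 14.3 CPM, Bmp6 at 123 against 82.8 CPM and Sfrp1, a Wnt antagonist, at 1020 against 749 CPM. Rspo1, which amplifies Wnt signals, was lower at 11.4 CPM (9.01 to 14.2) against 29.8 CPM (28.5 to 31.2), and the EGF family ligand Nrg1 at 56.6 against 159 CPM. Cd81, a surface marker of the Grem1 and Rspo3 fibroblasts below crypts, stood at 116 CPM in members, 159 CPM in the others and 83.9 CPM in the Cd34 reference. Ptgs2 (COX-2), which makes prostaglandin precursors, stood at 52 against 128 CPM, and the cytokine gene Il6 at 10.7 against 40.9 CPM. In the Cd34 reference Ptgs2 stood at 113.5 CPM, Il6 at 16 CPM, Rspo1 at 20.7 CPM and Nrg1 at 112 CPM.

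The remaining lists described here differed in their medians against all other barcodes. The lowest medians were those of 4 measured IL-6 family and inflammatory cytokines (0.54, 2 of them 2-fold lower), 3 EGF family ligands (0.564, 1 lower), 6 hyaluronan genes (0.621, 2 lower), 8 acute phase and antimicrobial genes (0.674, 3 lower) and 8 prostaglandin and lipid mediator genes (0.778, 1 lower and Enpp2 higher). Among the hyaluronan genes past 2-fold lower was Hapln1, which the rule counts, so that list was partly set by the rule. Against the Cd34 reference the hyaluronan list had none of 6 past 2-fold (median 0.859), and the acute phase list had 2 of 6 higher and 1 lower (median 1.44). No gene was 2-fold higher or lower among 14 measured cytokine receptors (median ratio 1.06), 11 basement membrane genes (1.04), 8 small leucine-rich proteoglycans (1.07), 10 complement genes (1.1) or 8 genes of the MAP3K2 and ERK5 route (0.957), in which Map3k2 stood at 34.5 against 36.8 CPM. Among 16 immediate early genes, whose products mark recent stimulation, 2 were 2-fold lower and the median was 0.762, and against the Cd34 reference none was past 2-fold and the median was 0.94. Of 18 antigen presentation genes 2 were 2-fold lower and none higher (median 0.922).

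Some adventitial genes were lower, in part by rule. Of 16 adventitial and universal fibroblast genes, 13 reached 20 CPM, 3 were 2-fold lower and none 2-fold higher, with a median ratio of 0.639. The others include the 1248 Cd34 barcodes with Ebf1 that the rule bars, and against the Cd34 reference 1 of 12 was 2-fold lower (median 0.776). Of the 3, Ebf1 was barred by the rule. Pi16, a marker of adventitial fibroblasts, stood at 14.5 CPM (11.8 to 17.6) against 109 CPM in the others and 32.2 CPM in the Cd34 reference, and Has1, a hyaluronan synthase, at 26 against 94.1 and 32.9 CPM. Ptx3, a soluble pattern receptor, stood at 3.21 against 59.1 CPM, and Gas1 at 10.2 against 83.3 CPM. In the Cd34 reference Ptx3 was under 20 CPM as well. Within clusters 0, 1 and 2, described below, members and other cells held under 20 CPM of both genes. There the ratios were 0.611, 1.28 and 0.984 for Ptx3 and 0.78, 1.83 and 1.27 for Gas1. In the same order of clusters they were 1.18, 0.857 and 0.436 for Pi16 and 1.05, 0.235 and 1.42 for Has1.

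Smooth muscle contractile genes were lower in members than in both references. Of 10 genes, 9 reached 20 CPM and all 9 were at least 2-fold lower, with a median ratio of 0.271, and Acta2 stood at 435 CPM against 1381 CPM. Against the Cd34 reference 4 of 9 were at least 2-fold lower, all 9 were at least 1.5-fold lower, and the median was 0.512. Within clusters 2, 0 and 1, described below, Acta2 ratios of members over the other cells were 0.893, 0.969 and 1.74. Those of Tagln were 0.854, 0.724 and 1.65, and those of Actg2 were 1.22, 0.6445 and 0.893. The gap to both references was thus not found for these genes in every cluster. With only barcodes of fibroblast clusters in both groups, an alternative chosen after seeing the data, none of the 9 was 2-fold lower, the median was 0.932, and Cnn1, Myh11 and Hhip turned to ratios above 1 (1.21, 1.08 and 1.45). That setting left out the cluster led by smooth muscle genes because of markers in this same list, so its smaller gap was set in advance. Slpi and Reg3b were likewise lower in members (14.3 against 88.3 CPM for Slpi), and both turned to ratios above 1 (1.12 and 1.15) once barcodes with 2 or more genes of another cell type were left out.

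Levels of several genes differed stepwise with the amount of Cxcl13, already below the rule's edge. Over Cd34 barcodes that met the other clauses, sorted by Cxcl13 UMIs into 0, 1, 2, 3 to 5, 6 to 11, 12 to 23 and 24 or more, Mgp stood at 2659, 3314, 4519, 5143, 5690, 6264 and 5836 CPM. C1qtnf3 stood at 414, 499, 658, 664, 741, 797 and 806 CPM, and Cxcl12 was 2572 CPM at 0 and 4094 CPM at 24 or more. Enpp2 was 43.1 CPM at 0 and 157 CPM in the highest class, and Hs3st1 was 61.8 and 173 CPM. In contrast, Eln was 1019 CPM at 0 and 740 CPM in the highest class, Ccl2 was 262 and 109 CPM, and Cd34 stayed between 497 and 551 CPM. Median depth lay between 5715 and 6163 UMIs in the 7 classes, which held 146 to 4208 barcodes.

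**Figure D3:**
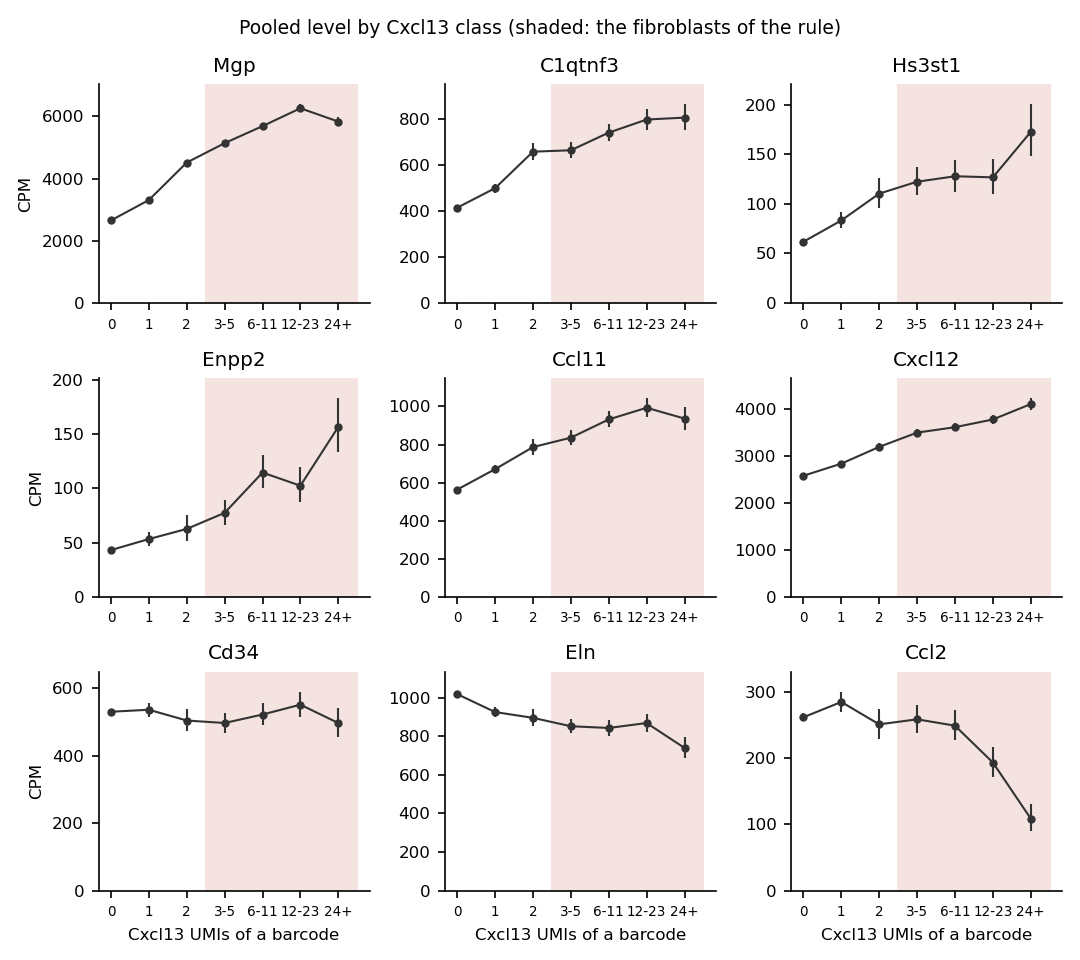
Pooled level (CPM) of 9 genes in Cd34 barcodes sorted by their Cxcl13 UMIs; shaded classes are the fibroblasts of the rule, and bars are exact Poisson 95% intervals. Mgp, C1qtnf3, Ccl11 and Cxcl12 are already above the class of 0 at 1 and 2 Cxcl13 UMIs, Cd34 is flat, and Eln and Ccl2 are lowest at 24 or more.

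The members were not 1 cluster. When all kept barcodes were clustered on their variable genes, 655 members (61.6%) fell in cluster 2, led by Cxcl13, Mgp, Hs3st1, Eln and C1qtnf3, where they made up 28% of 2338 barcodes. A further 215 (20.2%) fell in cluster 0, led by Kcnk2, Tnc, Ces1g and Adamdec1, and 111 (10.4%) in cluster 1, led by Hapln1, Spock3, Stmn2 and Opcml. Of the remaining 83, 39 lay in cluster 6, led by plasma cell and leukocyte genes, and 18 in cluster 4, led by smooth muscle genes. The median Cxcl13 count was 9 UMIs in cluster 2 and 7 in clusters 0 and 1.

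**Figure D4:**
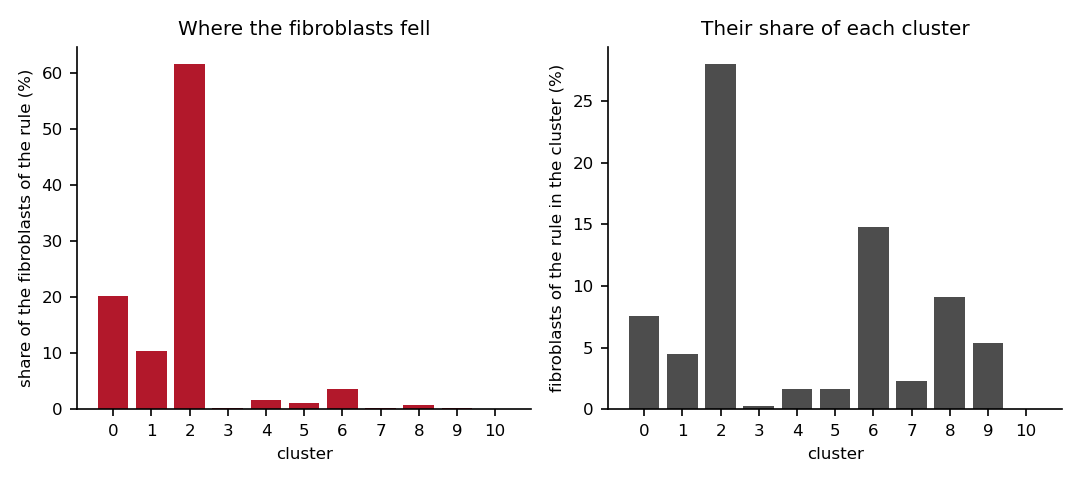
Left, share (%) of the fibroblasts of the rule that fell in each of 11 clusters; right, the share (%) of each cluster's barcodes that they made up. Cluster 2 holds 61.6% of them, yet they are 28% of it.

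Within each of these 3 clusters, Mgp, Hs3st1, C1qtnf3 and Enpp2 stood higher in members than in the cluster's other cells. These genes were named for high ratios in these same cells, so their ratios by cluster are no separate support. The other cells of a cluster are those the rule left out, so the contrasts below, Eln among them, are not free of the rule. In cluster 1, Stmn2, which the rule counts, had a ratio of 0.0712. Mgp stood at 7478 CPM in the members of cluster 2 and 5690 CPM in its other cells, at 3685 against 2229 CPM in cluster 0 and at 3444 against 1911 CPM in cluster 1. Members of clusters 0 and 1 thus held less Mgp than the non-members of cluster 2. Hs3st1 ratios were 1.47, 1.73 and 1.89 in clusters 2, 0 and 1, those of C1qtnf3 were 1.32, 1.44 and 1.71, and those of Enpp2 were 1.95, 1.59 and 2.28. Eln was lower in the members of clusters 2 and 1 and level in cluster 0: members of cluster 2 held 1034 CPM against 1734 CPM in its other cells (ratio 0.597), those of cluster 1 held 743 against 1198 CPM, and those of cluster 0 held 533 against 534 CPM. So Eln was a leading gene of the cluster that held most members, while the members were its lower part. Tnfsf13b stood at 498 CPM in the members and 526 CPM in the other cells of cluster 2, at 514 against 534 CPM in cluster 1, and at 288 against 178 CPM in cluster 0, where the ratio was 1.62 (1.47 to 1.78). Adamdec1, a metalloprotease of lamina propria fibroblasts, was 7151 CPM in the members of cluster 0 and 1246 CPM in those of cluster 2.

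Barcodes that met the Cxcl13 clause but failed others were also described. The 230 barcodes with at least 3 Cxcl13 UMIs and no Cd34 UMI held Mgp at 3206 CPM, Eln at 456 CPM and Adamdec1 at 5141 CPM, against 3038 CPM of Adamdec1 in members. The 76 that met the Cxcl13 and Cd34 clauses but held Ebf1, of which 4 also held 3 or more of Hapln1, Spock3, Opcml, Stmn2 and Sfrp2, had Pi16 at 527 CPM, Cd81 at 576 CPM, Il33 at 150 CPM and C3 at 2975 CPM, where members held 531 CPM of C3, a complement protein. The rule thus left out a small set of Cxcl13 barcodes with adventitial genes. These held less Cxcl13 (1125 CPM) and 50.7 CPM of Ccl19 (34.2 to 72.3).

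Open chromatin gave a readout that the rule did not use, from other animals. Cxcl13 lies on the plus strand of chromosome 5 (chr5:95956951-95961068, build mm10, GENCODE vM21). Within 10 kb of the gene, the authors' lists held 5 CD34 SP peaks, 6 each for MRISC and CD138, and 1 for Myofibroblast. A peak over the start was listed in CD34 SP (chr5:95956705-95957088, its authors' score above 58.9% of that list) and in CD138 (chr5:95956808-95957124, above 81.4%), and none in MRISC or Myofibroblast. Around Cxcl13, regions centred at -6900 to -6492 bp, 8176 to 8263 bp and 9781 to 9832 bp from the start were listed for MRISC, CD34 SP and CD138, and Myofibroblast had only the last. Each population has 1 list for its 2 libraries, so there is no spread, and a peak missing from a list may be closed or below the caller's threshold. The start region is thus listed as open in a Cd34-positive and in a Cd34-negative sorted population.

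**Figure D5:**
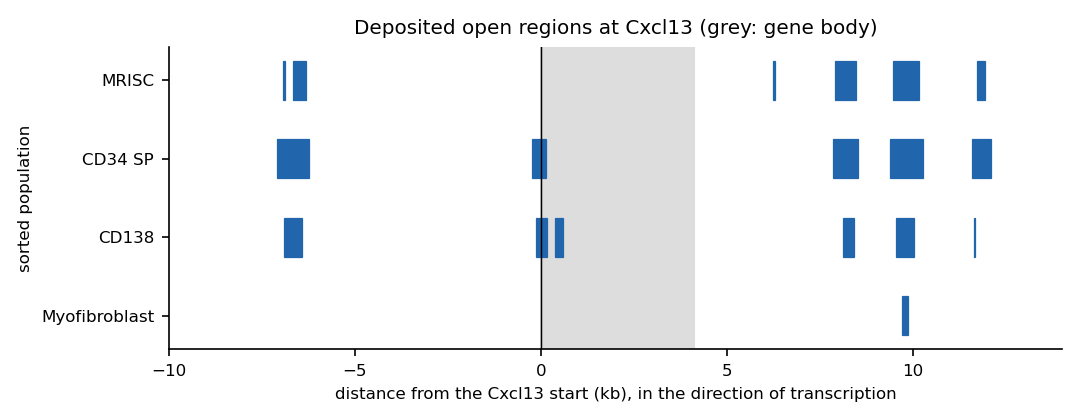
Deposited open regions (blue, to scale) around the Cxcl13 start in the 4 sorted populations; the axis is distance from the start in kb, and grey is the gene body. CD34 SP and CD138 have a region over the start, and Myofibroblast has 1 region in all.

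The 250 bases before the RefSeq start of Cxcl13 (chr5:95956689-95956938, plus strand, GRCm38.p6) are shown because they overlap the peak that differed between lists, which runs on past the start. Those of C1qtnf3 (chr15:10952082-10952331, plus strand, GRCm38.p6) are shown because lists differed there as well: a peak overlapped the window for MRISC, CD34 SP and CD138 and none did for Myofibroblast. Capitals mark words found by search:
Cxcl13: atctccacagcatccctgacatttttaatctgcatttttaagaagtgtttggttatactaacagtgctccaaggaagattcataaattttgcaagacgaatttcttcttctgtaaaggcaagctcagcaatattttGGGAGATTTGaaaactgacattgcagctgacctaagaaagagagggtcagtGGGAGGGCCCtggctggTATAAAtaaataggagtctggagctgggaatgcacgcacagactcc
C1qtnf3: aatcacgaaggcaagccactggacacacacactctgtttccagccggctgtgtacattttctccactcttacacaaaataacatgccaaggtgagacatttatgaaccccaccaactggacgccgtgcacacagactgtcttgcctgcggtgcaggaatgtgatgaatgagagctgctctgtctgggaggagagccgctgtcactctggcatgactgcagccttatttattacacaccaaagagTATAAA

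In the Cxcl13 window, a word of a relaxed NF-kappaB form (GGGA, any 4 bases, CC) lies at -63 to -54 from the start. A TATA box word TATAAA lies at -46 to -41. A still looser NF-kappaB form (GGGA, any 2 bases, TTTG), chosen after the window had been read, lies at -114 to -105. Searching both strands, 17.6%, 12.4% and 1.21% of 32851 RefSeq promoter windows of this length held these words. The AP-1 word TGANTCA had no match there. Nor did the E-box word CACGTG, and the same held for the CCAAT box. In the C1qtnf3 window only TATAAA was found, at -6 to -1. A match is a description of the letters, not of binding. Hs3st1 and Cd34 had a peak that overlapped their own window of this length in all 4 lists. Mgp had 12 peaks within 10 kb in CD34 SP, 6 of them on that population's specific list, and 5 in each of the other 3 lists. Ccl11 had 15 CD34 SP peaks, 16 for MRISC, 8 for CD138 and 2 for Myofibroblast, and Eln had 29, 20, 14 and 19 in that order.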

How the data were processed

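The members, gene lists and marker lists were chosen with earlier results of these data known. The authors deposited UMI counts, as integers for each gene in each droplet, from 10x 3' V2 libraries per the labels. The submitters' processing notes name bcl2fastq, Cell Ranger and Seurat with build mm10. The deposited ATAC-seq peak lists give 1 score per peak and 1 list per population. The same notes name bcl2fastq and bedtools with mm10 for them, and these scores only ranked peaks within a list. Their caller and scale: not given in the sources used here.

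UMIs were summed over the barcodes of a group and divided by the group's total (6842982 for members, 66077215 for the others), giving CPM with exact Poisson intervals at 95%; a count of 0 was read as at most 3 counts over the group. Ratios are of pooled CPM, with 20 CPM required in the higher group. Cells are not replicates, so no test was made. Counts of 35 symbols on 2 rows were summed. Genes were named from the fixed lists, and as the 30 highest and 20 lowest ratios against all others and the 15 highest and lowest against the Cd34 reference, among genes with at least 50 CPM. Kcnn3, Adcyap1r1, Ttyh1 and Ly6h lie under that level and were named after their values were seen. Clusters used 2000 variable genes, 30 principal components, 15 neighbours and Leiden resolution 0.5 (scanpy 1.11.5, leidenalg 0.10.2). No doublets were removed. Empty droplets were 546978 barcodes with 1 to 100 UMIs. The ratio code was tested on simulated data. The 12 bulk samples were not analysed here. Peaks were counted in the gene body with 10 kb on both sides (GENCODE vM21), and promoter windows came from RefSeq GRCm38.p6.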

Additional observations from a re-analysis of the deposited data

How the results depend on the processing

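The number of members moved to 457 with at least 10 Cxcl13 UMIs and to 627 after thinning each barcode to 3000 UMIs, so that depth limits who meets the rule, and stayed within 1.5 times under the other 6 rules tried. In 1 setting, free RNA was subtracted from both groups at 22.6%, the share that leukocyte and epithelial genes give in members (55.8% in all others). Genes at least 2-fold higher and lower against all others numbered 199 and 1139 with no low-value filter and 5 and 27 with 100 CPM. With free RNA so subtracted they numbered 18 and 167. Against the Cd34 reference these were 240 and 1016, 5 and 5, and 25 and 89, and 22 were lower within fibroblast clusters only. That setting, free RNA from epithelial genes alone and leaving out the top barcode of a gene were chosen after seeing the data. The share of members in the leading cluster was 64.9% at resolution 0.3, 29.4% at resolution 1.0 and 58% with the rule's genes left out of the variable genes. Peaks near the 18 genes examined numbered 279 for CD34 SP, 339 for MRISC, 346 for CD138 and 256 for Myofibroblast. With 50 kb, the CD34 SP, MRISC and Myofibroblast numbers were 462, 530 and 395, and above the median score the 4 numbers were 141, 172, 179 and 118. Ratios were recomputed 924 times for 84 genes and references: 601 stayed close, 311 moved and 12 reversed. Those 12 were, with barcodes of another type left out, Reg3b 1.15 and Slpi 1.12 against all others and Spink4 1.12, Slpi 1.08 and Reg3b 1.1 against the Cd34 reference. Spink4 was 1.01 without the deepest barcodes. Within fibroblast clusters Slpi was 1.17, Cnn1 1.21, Myh11 1.08 and Hhip 1.45 against all others, and Slpi 1.13 and Cnn1 1.26 against the Cd34 reference. The cause of these shifts was not tested. All 10 genes 2-fold higher stayed so under 5 UMIs of Cxcl13, 7 did under 2 UMIs, and 6 did within fibroblast clusters. No paired analysis was possible because there is 1 single-cell library and each population has 1 peak list.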

Other observations

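A few members carried most of the transcripts of some secreted proteins. Saa3, an acute phase protein, stood at 531 CPM in members, 349 CPM in all other kept barcodes and 193 CPM in Cd34 barcodes without Cxcl13, yet 244 of 1064 members held a Saa3 UMI and 1 held 918. The tenth of members with most Saa3 held 96.2% of its UMIs, against 25.3% for Mgp. Saa3 stood at 1013 CPM in the members of cluster 0 and at 49.6 CPM in those of cluster 2. Its ratio of 1.52 became 1.15 when each barcode was weighted equally. Without the barcode of each group that held most Saa3, members stood at 397 CPM and the others at 334 CPM, and the members of cluster 0 at 751 CPM.

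Clu and Areg were as uneven. Clu, a chaperone that follicular dendritic cells also make, stood at 45.7 CPM in members against 25.2 CPM in the others, from 36 members of which 1 held 139 UMIs, and at 290 CPM in the members of cluster 1 against 9.52 CPM in those of cluster 2. Without the top barcode of each group, Clu stood at 25.5 CPM in members, 21.4 CPM in the others and 129 CPM in the members of cluster 1. Areg, an EGF receptor ligand, stood at 55.7 CPM against 35 CPM and was held by 98 members. For Jchain, the joining chain of immunoglobulins made by plasma cells, 1 member held 251 of 411 UMIs. Without the top barcode of each group, Jchain stood at 23.4 CPM in members and 81.5 CPM in all other kept barcodes.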
